A study of Mus musculus with 12 samples.

Results

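The 36 genes described here encode glucose transporters, the enzymes that turn glucose into pyruvate and lactate, regulators of that flow, and further genes known to be induced in low oxygen. They were taken by symbol from the deposited table of read counts, and all 36 were found among its 24421 genes. The samples were B16 cells, a mouse melanoma line, transduced with lentivirus that carried either a control shRNA of no relevant target (shControl) or a single shRNA specific for Elp3 (shElp3). The protein, ELP3, is the catalytic part of Elongator, which is needed to modify the wobble uridine of certain tRNAs. Total RNA depleted of ribosomal RNA and ribosome-protected fragments (RPF, or footprints: the stretches of mRNA that a ribosome shields from nuclease) were sequenced from both kinds of cells, to examine how ribosomes spread over mRNAs when Elp3 is depleted. There were 3 libraries (A, B and C) in each of the 4 groups, and the labels relate each RPF library to the RNA library with its shRNA and letter. Such a pair is called a culture below, although the labels do not say that both came from the same cells. All cells were transduced and grown in the same serum-containing medium, and the labels name no low-oxygen treatment. Nothing in the labels says that the replicates were separate transductions, so p-values measure only the spread between these libraries, and only 1 shRNA against Elp3 was used.

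In glycolysis, hexokinase, phosphofructokinase and aldolase prepare and split the sugar, and the enzymes from triose phosphate isomerase to pyruvate kinase harvest ATP and NADH from the 3-carbon products. Lactate dehydrogenase then regenerates NAD, and monocarboxylate transporters move the lactate out of the cell. In low oxygen the factor HIF1A is no longer hydroxylated and destroyed, pairs with ARNT and binds the core sequence ACGTG or GCGTG near many of these genes, and MYC, which binds the palindrome CACGTG, also drives several of them. Many tumours, melanoma among them, run glycolysis to lactate even where oxygen is present.

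Total counts ran from 7914369 to 16527864 in the RNA libraries and from 7619269 to 10998570 in the RPF libraries. Levels are given as CPM, a gene's reads relative to its library's total after TMM scaling. The targeted gene, Elp3, was at 93.9, 72.0 and 69.9 CPM in control RNA A, B and C and at 41.2, 35.3 and 35.4 CPM in shElp3 RNA. Its log2 fold change was -1.08 (SE 0.22, adjusted p = 0.0831) in RNA, -1.07 (SE 0.17, adjusted p = 0.000977) with the letters as a replicate block, and -0.93 (SE 0.15, adjusted p = 0.0249) in footprints. All 7 melanocyte markers were detected (fewer cells of a type and less RNA per cell cannot be told apart in such samples), with summed levels of 8815 to 11756 CPM in control RNA and 5858 to 7390 CPM in shElp3 RNA. In footprints the melanocyte sums overlapped, at 14526 to 33909 CPM in control and 11363 to 20216 CPM in shElp3 libraries. Of 7 macrophage and 7 fibroblast markers 5 each had a mean under 1 CPM in every group, as did all 5 epithelial markers. The macrophage markers summed to 7.69 to 22.4 CPM in control RNA and 6.22 to 12.05 CPM in shElp3 RNA, and to 23.7 to 77.2 and 14.7 to 33.2 CPM in footprints, mostly Cd68; their part in the results below was not tested. The fibroblast markers summed to 13.1 to 24.6 and 21.8 to 43.1 CPM in RNA and to 24.8 to 26.6 and 35.3 to 40.4 CPM in footprints, and their part was not tested either. Of these lists, Pmel, a melanosome protein, fell in RNA (log2 -1.59, SE 0.26, adjusted p = 0.0396) and footprints (log2 -1.81, SE 0.35, adjusted p = 0.0364), and the collagen gene Col1a1 rose in footprints (log2 1.48, SE 0.22, adjusted p = 0.0203). Letter A stood apart from B and C in both RNA groups and in control footprints: the Spearman correlation across genes of control RNA A with B was 0.899, against 0.993 for B with C. Results are therefore given with and without letter A. Fits without letter A rest on libraries B and C of each group alone, and were chosen after letter A was seen to stand apart.

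The glycolysis and hypoxia genes were among those in which control culture A differed. They took 2.21% of all counts in control RNA A, against 1.36% in B and 1.22% in C, and 1.31, 1.23 and 0.968% in shElp3 RNA A, B and C. In footprints the shares were 2.29, 1.87 and 1.84% in control and 1.78, 1.79 and 1.51% in shElp3 libraries. In control RNA, 28 of the 36 were higher in A than in both B and C, where 46.3% of all 12274 genes tested were, and 13 were at least 2-fold above the mean of B and C, where 14.5% of all genes were. The median ratio of A to that mean was 1.46 over the members and 1.00 over all genes. These shares describe 1 library and carry no test.

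The members furthest above were spread over the pathway and its hypoxia-induced neighbours. Bnip3, a mitophagy receptor, was 3.46-fold, P4ha1, a collagen prolyl hydroxylase subunit, 3.34-fold, and Pgk1, phosphoglycerate kinase, 3.14-fold above the mean of B and C. Eno1 (3.06-fold), Tpi1 (2.95-fold), Slc16a3 (2.69-fold), Aldoa (2.64-fold) and Ankrd37 (2.60-fold) followed. Hexokinase 2 (Hk2, 0.654-fold) and Pfkfb3 (0.706-fold) were lowest, so the genes did not all stand on the same side. In control footprints 27 of the 36 were higher in A than in B and C (44.0% of all genes), with a median ratio of 1.30 and 6 members at 2-fold or more (5.71% of all genes). In shElp3 RNA 18 of 36 were higher in A (44.0% of all genes), in shElp3 footprints 9 of 36 (35.96%), and no member reached 2-fold in either, where 2.51 and 0.414% of all genes did.

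**Figure D1:**
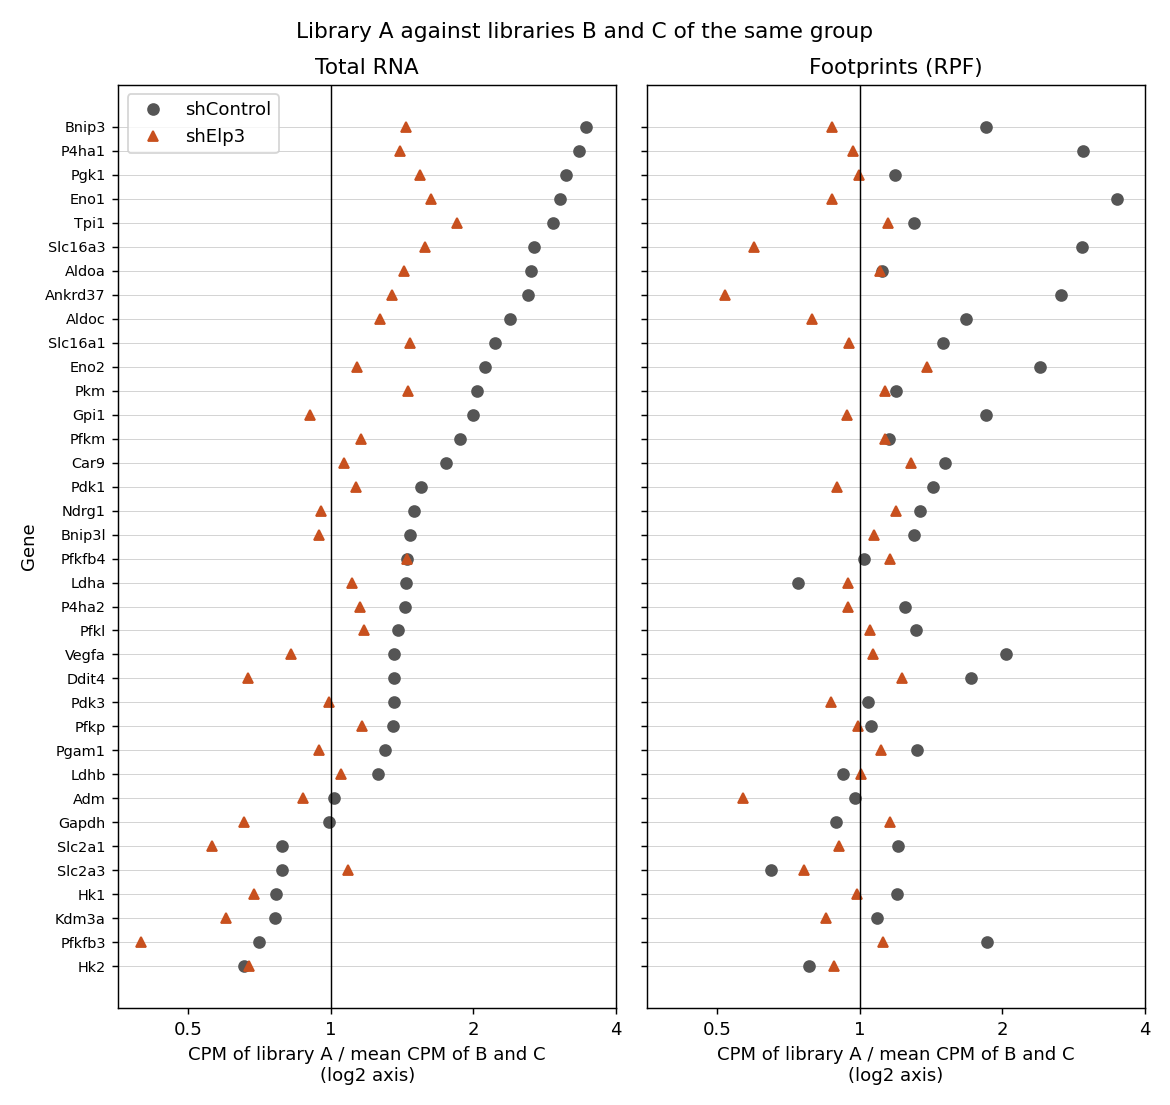
Level of each of the 36 genes in library A divided by its mean level in libraries B and C of the same group (log2 axis), in total RNA (left) and footprints (right). Grey circles are shControl and orange triangles shElp3. The control RNA circles run from Hk2 at 0.654 to Bnip3 at 3.46, with 28 of the 36 genes higher in A than in B and in C, and no shElp3 triangle reaches 2.

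The promoters of the 3 members furthest above in control RNA A, and of Tpi1 and Ldha, which hold no match and many, are shown because members were high together in that library. Each is the 250 bases before the annotated start site, 5′ to 3′ on the gene's own strand, from RefSeq on build GRCm38.p6, with every ACGTG or GCGTG, on either strand, in capitals. The windows are chr7:138909507-138909756 on the minus strand for Bnip3, chr10:59323046-59323295 on the plus strand for P4ha1, chrX:106186850-106187099 on the plus strand for Pgk1, chr6:124814159-124814408 on the minus strand for Tpi1 and chr7:46845554-46845803 on the plus strand for the upstream start of Ldha.
Bnip3: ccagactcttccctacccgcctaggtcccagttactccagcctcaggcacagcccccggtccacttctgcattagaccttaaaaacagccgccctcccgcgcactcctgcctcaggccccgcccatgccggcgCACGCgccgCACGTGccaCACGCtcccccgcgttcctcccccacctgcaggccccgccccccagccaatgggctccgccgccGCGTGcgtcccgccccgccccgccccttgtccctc
P4ha1: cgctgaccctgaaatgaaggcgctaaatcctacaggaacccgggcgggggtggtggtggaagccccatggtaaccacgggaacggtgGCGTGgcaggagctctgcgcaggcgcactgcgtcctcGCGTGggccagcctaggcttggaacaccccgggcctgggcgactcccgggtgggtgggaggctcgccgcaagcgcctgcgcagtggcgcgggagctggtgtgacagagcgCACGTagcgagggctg
Pgk1: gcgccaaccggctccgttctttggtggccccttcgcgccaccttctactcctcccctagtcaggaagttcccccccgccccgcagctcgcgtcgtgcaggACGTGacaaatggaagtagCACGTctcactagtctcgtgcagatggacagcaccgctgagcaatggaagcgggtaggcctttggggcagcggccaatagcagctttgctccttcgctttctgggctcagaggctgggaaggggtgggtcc
Tpi1: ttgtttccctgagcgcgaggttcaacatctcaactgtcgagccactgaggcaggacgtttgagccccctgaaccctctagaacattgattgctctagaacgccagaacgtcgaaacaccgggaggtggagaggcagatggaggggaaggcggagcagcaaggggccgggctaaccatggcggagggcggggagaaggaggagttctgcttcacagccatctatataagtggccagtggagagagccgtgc
Ldha: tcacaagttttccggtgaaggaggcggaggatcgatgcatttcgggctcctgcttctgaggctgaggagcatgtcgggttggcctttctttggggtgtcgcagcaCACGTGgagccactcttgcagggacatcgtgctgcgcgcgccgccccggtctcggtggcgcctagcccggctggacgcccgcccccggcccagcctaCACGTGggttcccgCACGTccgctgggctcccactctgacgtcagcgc

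Bnip3 held 5 matches, the nearest 35 bases before the start site, P4ha1 held 3 and Pgk1 2, at 150 and 131 bases before the start. Ldha, whose control RNA A excess was 1.44-fold, held 5 before the upstream start shown and 1 before its other start, and Tpi1 held 0. The members lowest in control RNA A also held matches: Hk2 had 2, and Pfkfb3 had 3 and 1 before its different starts. A CACGTG palindrome counts on both strands, so the pairs of overlapping matches in Bnip3 and Ldha are 1 stretch read both ways. Over the 33 members with a window in the promoter table, 30 had at least 1 match, and 38 of their 49 windows did (77.6%), against 12679 of 32851 windows of all genes (38.6%). Slc2a3, Ndrg1 and Bnip3l had no entry. The share of genes with a match was not counted over all genes. The members were chosen in part as genes known to be induced in low oxygen, so these shares are not an independent result. A match is a string of letters in the window and does not show that a factor binds there.

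In total RNA, no member passed the threshold of 0.05 on the adjusted p between shElp3 and shControl, where 1.14% of all 12274 genes did (140 genes). The members lay mostly below control: 28 of 36 had a log2 fold change below 0, with a median of -0.36 against -0.02 over all genes. 2 members had an unadjusted p under 0.05 (1519 of all genes did), and DESeq2 called 0 members as well, where it called 5.31% of all genes. With the letters as a replicate block, triose phosphate isomerase (Tpi1), glyceraldehyde phosphate dehydrogenase (Gapdh) and the stress-induced gene Ndrg1 were called lower, 3 of 36 where 6.75% of all genes were. With letters B and C alone, the same 3 fell and Eno2 and Vegfa rose, where 10.5% of all genes were lower and 8.88% higher, and the median was -0.15. Within a letter, the median log2 difference of the members was -0.57 in A, -0.07 in B and -0.18 in C, with 32, 21 and 25 of the 36 below 0.

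In footprints, no member was called either, where 4.83% of all 11343 genes were, 1.77% higher and 3.06% lower; scaling by upper quartiles turned that split of 201 higher and 347 lower into 277 and 270. Again 28 of 36 lay below 0, with a median of -0.31 against -0.01 over all genes, and 10 members had an unadjusted p under 0.05 (2622 of all genes). DESeq2 called 5 members lower, Aldoc, Ndrg1, Pfkp, Slc2a1 and Tpi1, where it called 6.88% of all genes lower. With letters B and C alone, Slc2a3, Pfkp, Tpi1, Gapdh, Ndrg1 and Ddit4 fell and Eno2 rose, where 12.2% of all genes were lower and 9.41% higher, and the median was -0.02. Leaving out control footprint A alone gave 9 members called, where 24.8% of all genes were. The within-letter medians were -0.48 in A, 0.00 in B and -0.27 in C, with 29, 18 and 23 of 36 below 0. The median lay furthest below 0 in letter A in both fractions; this difference between letters was not tested.

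Some members had groups that did not overlap. In RNA the 3 shElp3 libraries lay below all 3 control libraries for 4 members (Gapdh, Ldha, Pdk3 and Ndrg1), where 9.58% of all genes did so, and above them for 0, where 10.2% did. In footprints they lay below for 10 members (Slc2a1, Pfkp, Aldoc, Tpi1, Gapdh, Pgk1, Pkm, Slc16a1, Ndrg1 and Ddit4), where 15.4% of all genes did, and above for 1 (Pfkfb4), where 15.4% did.

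**Figure D2:**
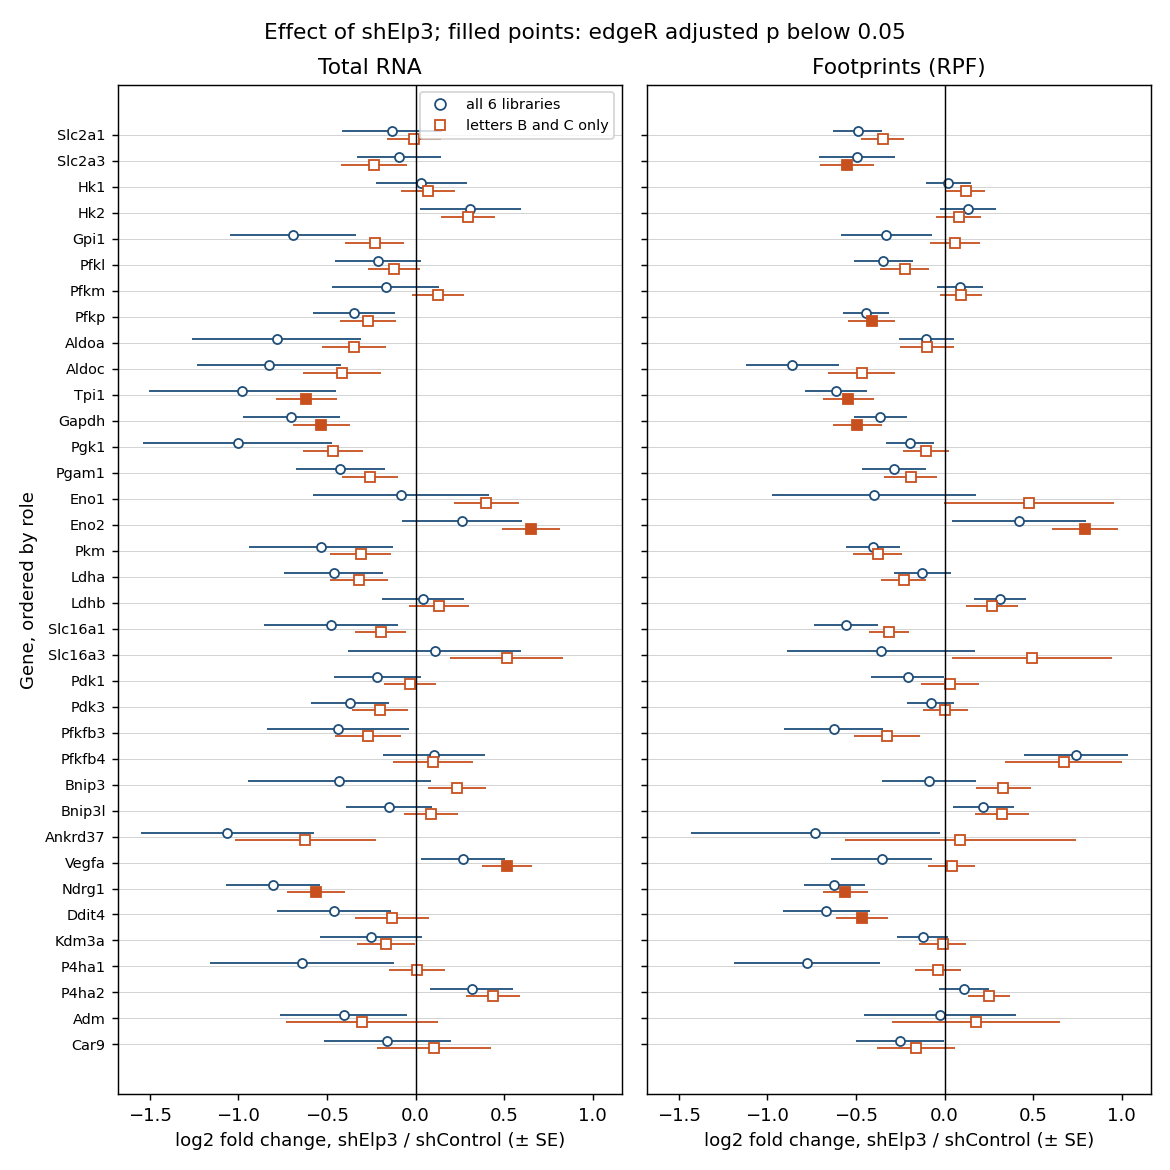
log2 fold change of shElp3 over shControl with its SE for the 36 genes in order of role, in total RNA (left) and footprints (right), from all 6 libraries of a fraction (blue circles) and from letters B and C alone (orange squares). Filled points have an edgeR adjusted p below 0.05: none of the blue points is filled, while 5 orange points are in RNA and 7 in footprints.

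In the values by library that follow, libraries are in the order A, B and C, with shControl given first and shElp3 after it. Of the glucose transporters, Slc2a1 (GLUT1, the widespread basal transporter) was at 53.3, 65.5 and 69.6 CPM in control RNA A, B and C and at 37.6, 65.6 and 68.6 CPM in shElp3 RNA. Footprints of Slc2a1 were at 176, 142 and 150.4 CPM in control and 104, 110.2 and 119 CPM in shElp3 libraries. The RNA groups overlapped and the footprint groups did not, with every shElp3 footprint library below every control. The log2 fold change was -0.13 (SE 0.28, adjusted p = 0.923) in RNA and -0.49 (SE 0.14, adjusted p = 0.0869) in footprints. The change of the Slc2a1 ratio of footprints to RNA was not called. It was -0.41 (SE 0.33) without the block and -0.36 (SE 0.14, adjusted p = 0.49) with the replicate block. Slc2a3 (GLUT3, a transporter of high affinity) was at 20.04, 23.8 and 27.1 CPM in control RNA and 23.4, 18.3 and 24.7 CPM in shElp3 RNA. Footprints of Slc2a3 were at 24.3, 37.3 and 37.5 against 19.4, 27.2 and 23.9 CPM. Control footprint A was the low library of its group here, and without letter A footprints fell (log2 -0.55, SE 0.15, adjusted p = 0.0243).

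The hexokinases, which trap glucose as glucose 6-phosphate, had mean levels at or above control. Hk1 was at 98.5, 127 and 131 CPM in control and 93.3, 152 and 119 CPM in shElp3 RNA, and its footprints at 261, 218 and 217 against 233, 235 and 238 CPM. Hk2, the inducible form, was at 104, 145 and 173 against 131, 211 and 181 CPM in RNA and at 146, 174 and 199.9 against 175, 211 and 184 CPM in footprints. Groups overlapped for both genes in both fractions, and their log2 fold changes were between 0.02 and 0.31. Gpi1, the isomerase that follows, was at 1378, 729 and 648 CPM in control and 529.6, 683 and 489.7 CPM in shElp3 RNA. Footprints of Gpi1 were at 1733, 902 and 972 against 918, 1106 and 847 CPM. Control A was the highest Gpi1 library of each fraction, and its log2 RNA change of -0.69 became -0.23 without letter A.

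Among the phosphofructokinases, which commit the sugar to glycolysis, Pfkp was at 90.0, 62.9 and 70.4 CPM in control and 64.4, 60.1 and 50.9 CPM in shElp3 RNA. Footprints of Pfkp were at 159, 141 and 159.7 against 112, 121 and 105 CPM, with the groups apart. The footprint change was -0.44 (SE 0.13, adjusted p = 0.0918), and -0.41 (SE 0.13, adjusted p = 0.0449) without letter A. Pfkm, the muscle-type subunit, was at 166, 92.4 and 84.9 against 112, 94.4 and 99.1 CPM in RNA and at 138, 119 and 120.4 against 144, 127 and 128 CPM in footprints, with overlapping groups. Pfkl, the liver-type subunit, averaged 265 ± 53.0 against 229 ± 29.2 CPM in RNA and 263 ± 44.9 against 207 ± 25.4 CPM in footprints (mean and SD, n = 3), and also overlapped.

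Aldoa, the aldolase that splits the sugar, was at 4756, 1950.4 and 1648 CPM in control and 2020.2, 1676 and 1157 CPM in shElp3 RNA, with control A far above the rest, and at 2431, 2072 and 2283 against 2249, 2318 and 1753 CPM in footprints, where A was not far from B and C. Its related form Aldoc was at 34.4, 12.8 and 15.9 against 13.8, 12.6 and 9.22 CPM in RNA. Aldoc footprints were at 57.9, 30.9 and 38.3 CPM in control and 19.8, 29.1 and 20.9 CPM in shElp3 libraries, with the groups apart and a log2 change of -0.86 (SE 0.26, adjusted p = 0.106). That change was -0.47 (SE 0.19, adjusted p = 0.105) without letter A and -0.58 (SE 0.18, adjusted p = 0.0438) without control footprint A alone. Tpi1, which interconverts the 3-carbon products, was at 2326, 837 and 739 CPM in control and 950.4, 608 and 421 CPM in shElp3 RNA. Footprints of Tpi1 were at 1948, 1508 and 1489 against 1178, 1166 and 888 CPM. The footprint groups did not overlap, and in RNA only shElp3 A reached into the control range. The log2 change of Tpi1 RNA was -0.98 (SE 0.53, adjusted p = 0.538), -0.85 (SE 0.24, adjusted p = 0.0333) with the replicate block and -0.62 (SE 0.17, adjusted p = 0.0183) without letter A. That of its footprints was -0.61 (SE 0.17, adjusted p = 0.0896), and -0.54 (SE 0.14, adjusted p = 0.0207) without letter A.

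Of the 3-carbon steps, Gapdh was lower in shElp3 libraries of all 3 letters. It was at 642, 698 and 600.1 CPM in control RNA A, B and C and at 294, 506 and 392 CPM in shElp3 RNA. Footprints of Gapdh were at 893, 1113 and 892 CPM in control and 827, 758 and 667 CPM in shElp3 libraries. The groups were apart in both fractions, and control A was in no case the highest control library. The log2 change of Gapdh RNA was -0.70 (SE 0.27, adjusted p = 0.35), -0.73 (SE 0.21, adjusted p = 0.0374) with the replicate block and -0.53 (SE 0.16, adjusted p = 0.0267) without letter A. That of its footprints was -0.36 (SE 0.15, adjusted p = 0.196), and -0.49 (SE 0.14, adjusted p = 0.0271) without letter A.

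Pgk1, which makes the first ATP of the pathway, was at 6379.5, 2266 and 1794 CPM in control and 2267, 1611 and 1328 CPM in shElp3 RNA. Footprints of Pgk1 were at 3654, 3167 and 2984 against 2842, 2943 and 2774 CPM. Control RNA A stood far above all others, whereas the footprint groups lay close together and just apart. The log2 change was -1.004 (SE 0.53, adjusted p = 0.531) in RNA, -0.47 without letter A, and -0.20 (SE 0.14, adjusted p = 0.437) in footprints, or -0.11 without letter A. Pgam1, the mutase, was at 922, 786 and 631 against 559, 639 and 545 CPM in RNA and at 1149.7, 885 and 856 against 845, 884 and 643 CPM in footprints, overlapping in both. Pkm, pyruvate kinase, was at 4504, 2310.2 and 2105 CPM in control and 2589.8, 2065 and 1499.7 CPM in shElp3 RNA, and at 4437, 3766 and 3691 against 3252, 3125 and 2620.2 CPM in footprints, where the groups were apart. Its footprint change was -0.40 (SE 0.15, adjusted p = 0.165).

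The enolases differed from these. Eno2, the neuronal-type enolase, was at 88.6, 41.4 and 42.3 CPM in control and 74.9, 73.1 and 58.6 CPM in shElp3 RNA. Footprints of Eno2 were at 106, 34.5 and 54.1 against 107, 81.4 and 72.4 CPM. Control B and C were the lowest 2 libraries in both fractions and control A lay above or level with the highest shElp3 library. Without letter A, Eno2 rose in RNA, by 0.65 (SE 0.16, adjusted p = 0.00942), and in footprints, by 0.79 (SE 0.19, adjusted p = 0.0121); over all libraries the changes were 0.26 (SE 0.34, adjusted p = 0.855) and 0.42 (SE 0.38, adjusted p = 0.547). Eno1, the common enolase, had only 12 to 31 counts in any footprint library against 316 to 1436 in RNA. It was at 107, 40.9 and 29.1 against 75.0, 41.5 and 50.6 CPM in RNA and at 4.34, 1.39 and 1.09 against 1.504, 2.16 and 1.28 CPM in footprints. Eno1b, a near-identical copy in the same table, had 0 to 3 footprint and 6 to 75 RNA counts, and how reads shared by the copies were counted is not stated, so the Eno1 values are uncertain. RefSeq lists such copies for 7 further members: Aldoa, Gapdh, Pgk1, Pgam1, Ldha, Ldhb and Bnip3l. How reads shared with those copies were counted is not stated either, so the same limit applies to the values of these members.

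**Figure D3:**
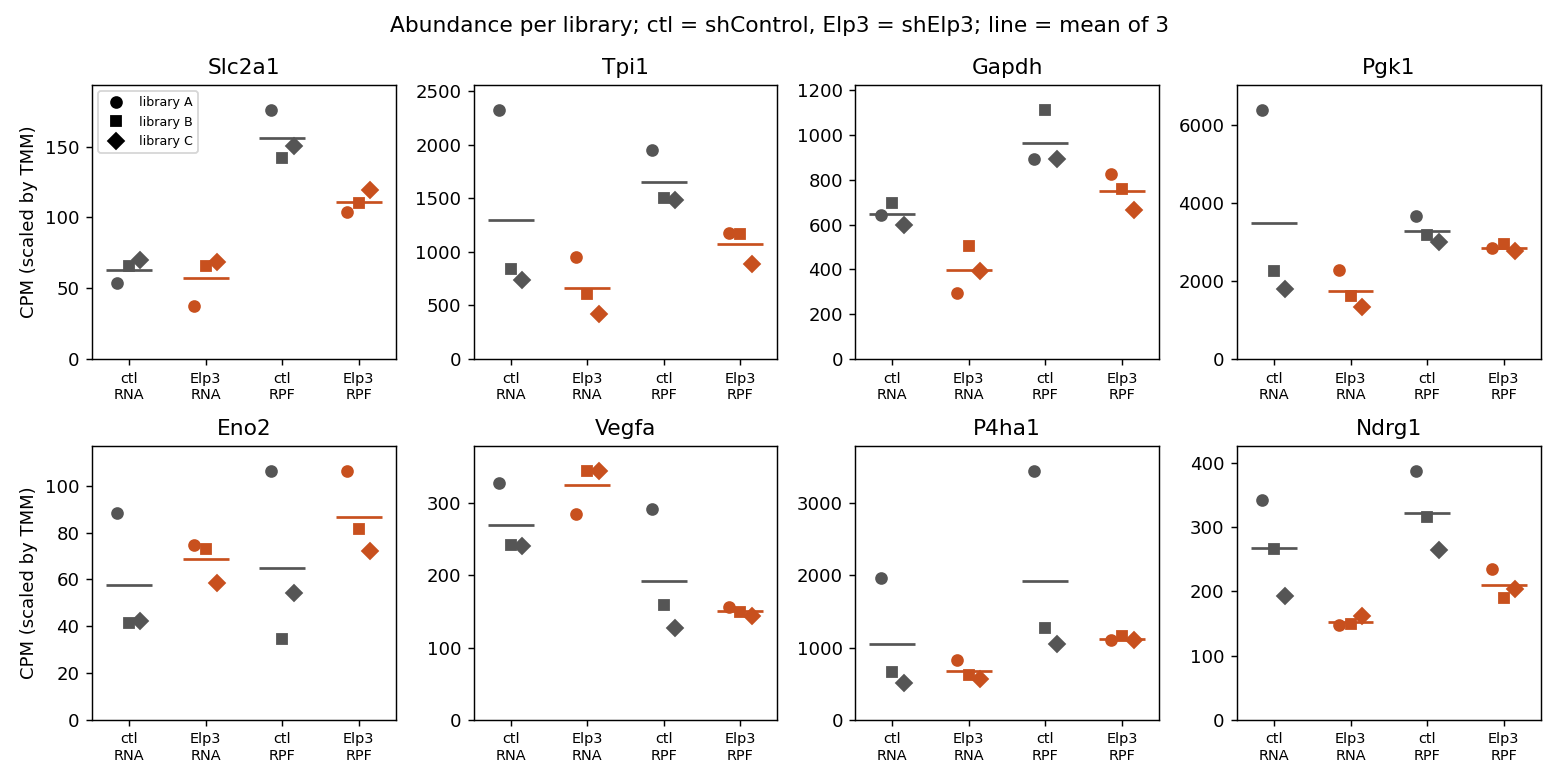
CPM per library (linear axes from 0) of 8 members in the 4 groups, with letters A, B and C as circles, squares and diamonds and a line at the mean of 3. Control A stands above B and C in RNA for Tpi1, Pgk1, Eno2, Vegfa, P4ha1 and Ndrg1, while the Gapdh and Ndrg1 groups do not overlap in either fraction.

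At the lactate step, Ldha, which turns pyruvate into lactate, was at 1103, 829 and 702 CPM in control and 682, 696 and 534 CPM in shElp3 RNA. Footprints of Ldha were at 1054, 1466 and 1381 against 1148, 1299.8 and 1127 CPM. The RNA groups were just apart and the footprint groups overlapped, with control A the lowest footprint library. The log2 change was -0.46 (SE 0.28, adjusted p = 0.595) in RNA and -0.13 (SE 0.16, adjusted p = 0.681) in footprints. Ldhb, the form that favours the reverse reaction, was at 105, 76.1 and 91.8 against 97.0, 105 and 79.0 CPM in RNA and at 142, 132 and 177 against 187, 195 and 177 CPM in footprints, where the highest control value lay within the shElp3 range. Its footprint change was 0.31 (SE 0.15, adjusted p = 0.253).

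Slc16a1 (MCT1), a lactate and pyruvate carrier, was at 359.6, 172 and 152 CPM in control and 208, 141 and 142 CPM in shElp3 RNA. Footprints of Slc16a1 were at 382, 258 and 252 against 195, 203 and 207 CPM, with the groups apart. Control A was its highest library in both fractions. The footprint change was -0.56 (SE 0.18, adjusted p = 0.118), -0.31 (SE 0.11, adjusted p = 0.0692) without letter A and -0.35 (SE 0.10, adjusted p = 0.0293) without control footprint A alone. Slc16a3 (MCT4), the hypoxia-induced lactate exporter, was scarce, at 9.98, 4.39 and 3.04 against 8.27, 4.15 and 6.30 CPM in RNA and 3.50, 1.19 and 1.18 against 1.00, 1.65 and 1.71 CPM in footprints, with overlapping groups.

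Of the flux regulators, the pyruvate dehydrogenase kinases keep pyruvate out of the mitochondrial oxidation route. Pdk1 was at 122, 78.1 and 78.5 against 86.4, 75.0 and 78.1 CPM in RNA and at 81.3, 52.0 and 62.1 against 52.3, 67.4 and 49.1 CPM in footprints, overlapping in both. Pdk3 was at 52.7, 40.3 and 37.2 CPM in control and 33.4, 33.4 and 34.0 CPM in shElp3 RNA, with the groups apart, and at 64.6, 64.4 and 59.6 against 54.2, 64.8 and 59.6 CPM in footprints. Its RNA change was -0.37 (SE 0.22, adjusted p = 0.589). The PFKFB enzymes set the level of fructose 2,6-bisphosphate, the activator of phosphofructokinase. Pfkfb4 was at 12.5, 8.51 and 8.75 against 13.4, 9.73 and 8.82 CPM in RNA and at 4.34, 3.67 and 4.82 against 7.90, 4.84 and 8.78 CPM in footprints, the only member whose shElp3 footprints all lay above control. Its footprint change was 0.74 (SE 0.29, adjusted p = 0.18). Pfkfb4 had only 31 to 82 footprint counts per library, and its groups were barely apart, with shElp3 B at 4.84 and control C at 4.82 CPM. Pfkfb3 averaged 49.97 ± 12.2 against 36.9 ± 17.9 CPM in RNA and 50.5 ± 19.8 against 32.6 ± 5.93 CPM in footprints (mean and SD, n = 3), with overlapping groups.

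Among the other hypoxia-induced genes, Ndrg1 was lower in every shElp3 library. It was at 343, 266 and 192 CPM in control and 148, 149 and 162 CPM in shElp3 RNA. Footprints of Ndrg1 were at 388, 316 and 264 against 235, 189.5 and 204 CPM. Control libraries spread widely and shElp3 libraries narrowly, with no overlap in either fraction. The log2 change of Ndrg1 RNA was -0.80 (SE 0.26, adjusted p = 0.25), -0.77 (SE 0.21, adjusted p = 0.027) with the replicate block and -0.56 (SE 0.16, adjusted p = 0.0225) without letter A. That of its footprints was -0.62 (SE 0.17, adjusted p = 0.0826), and -0.56 (SE 0.13, adjusted p = 0.00971) without letter A. Ddit4 (REDD1), an inhibitor of mTORC1 signalling, was at 178, 146 and 117 against 80.3, 155 and 85.6 CPM in RNA and at 178, 114 and 94.1 against 92.3, 81.4 and 69.1 CPM in footprints, where the groups were apart. Its footprint change was -0.67 (SE 0.25, adjusted p = 0.156), and -0.47 (SE 0.15, adjusted p = 0.0423) without letter A.

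Vegfa, which encodes the main growth factor for blood vessels, was at 328, 242 and 241 CPM in control and 284, 345 and 345 CPM in shElp3 RNA. Footprints of Vegfa were at 291, 159 and 127 against 157, 149.7 and 144 CPM. The groups overlapped in both, with control A high in footprints and shElp3 A the low RNA library of its group. The log2 change of Vegfa RNA was 0.27 (SE 0.24, adjusted p = 0.756), and without letter A its RNA rose by 0.52 (SE 0.14, adjusted p = 0.0158). That of its footprints was -0.36 (SE 0.28, adjusted p = 0.496), and 0.04 (SE 0.13, adjusted p = 0.861) without letter A, so the sign differed with and without letter A.

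P4ha1 and P4ha2 are catalytic subunits of the prolyl hydroxylase that collagen needs. P4ha1 was at 1961, 659 and 514 CPM in control and 827, 622 and 559 CPM in shElp3 RNA, and at 3451, 1278 and 1055 against 1100.3, 1164 and 1109.6 CPM in footprints. Control A alone lay far above, and the log2 RNA change of -0.64 (SE 0.52, adjusted p = 0.722) was 0.01 without letter A. P4ha2 was at 82.0, 54.8 and 59.7 against 89.4, 76.4 and 78.9 CPM in RNA and at 169, 130.2 and 140.2 against 152, 164 and 158 CPM in footprints, overlapping in both.

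Bnip3 and Bnip3l mark mitochondria for removal. Bnip3 was at 231, 75.6 and 57.9 against 113, 80.7 and 76.3 CPM in RNA and at 181, 109 and 87.3 against 108, 137 and 109 CPM in footprints, and its RNA change of -0.43 was 0.23 without letter A. Bnip3l averaged 119.6 ± 29.2 against 108 ± 9.77 CPM in RNA and 105 ± 16.7 against 122 ± 18.8 CPM in footprints (mean and SD, n = 3). Kdm3a, a histone H3 lysine demethylase that needs oxygen, was at 77.6, 114 and 89.3 against 54.4, 97.9 and 83.7 CPM in RNA and at 167, 169.9 and 137 against 129.5, 152 and 153 CPM in footprints. Car9, a membrane carbonic anhydrase that handles acid, was scarce, at 7.15, 4.21 and 3.96 against 4.80, 5.70 and 3.31 CPM in RNA and 13.7, 9.23 and 8.92 against 10.4, 8.95 and 7.28 CPM in footprints. Ankrd37 averaged 3.73 ± 2.31 against 1.79 ± 0.37 CPM in RNA, and Adm, which encodes a vasodilator peptide, 1.85 ± 0.373 against 1.38 ± 0.386 CPM; in footprints they were at 2.12 ± 1.34 against 1.22 ± 1.097 CPM and at 1.56 ± 0.117 against 1.52 ± 0.742 CPM. All of these overlapped between groups in both fractions.

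A ratio of 2 related genes within a library needs no scaling between libraries, and 12 such pairs were compared in both fractions. With 3 against 3 libraries the smallest possible exact permutation p is 0.1 (two-sided), so no pair could pass, and the smallest value adjusted over the 24 tests was 0.3. The log2 ratio of Ldha to Ldhb had groups apart in both fractions, at 3.39, 3.45 and 2.93 in control and 2.81, 2.72 and 2.75 in shElp3 libraries in RNA and 2.89, 3.48 and 2.97 in control and 2.62, 2.74 and 2.67 in shElp3 libraries in footprints. That ratio was lower in every shElp3 library, with mean differences of -0.49 and -0.43 on the log2 scale. In RNA the groups were also apart for Hk2 to Hk1 (a difference of 0.30), Slc16a3 to Slc16a1 (0.62) and Pfkp to Pfkl (-0.14). In footprints they were apart for Aldoc to Aldoa (-0.72), P4ha2 to P4ha1 (0.69) and Pfkm to Pfkl (0.43). By library, Aldoc to Aldoa was at -5.39, -6.07 and -5.90 in control and -6.82, -6.31 and -6.39 in shElp3 footprints. P4ha2 to P4ha1 was at -4.35, -3.29 and -2.91 against -2.86, -2.83 and -2.81. Pfkm to Pfkl was at -1.18, -0.93 and -1.05 against -0.56, -0.85 and -0.48. Control A lay furthest from the shElp3 values in each of these footprint pairs. Each of the 8 ratios with groups apart had the smallest exact p the design allows, 0.1. Of single genes, 19.8% in RNA and 30.8% in footprints had groups apart, and no such share was computed for ratios of other genes.

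The change of the ratio of footprints to RNA was tested as an interaction over the 12 libraries. No member was called, as was no gene of the 11238 tested (0%); 0 members and 62 of all genes had an unadjusted p under 0.05, and DESeq2 called 0. With the replicate block 8 genes were called (0.0712%), no member among them, and 5 members had an unadjusted p under 0.05, as did 990 of all genes. The median change of the members was 0.08, against -0.03 over all genes. Vegfa had the log2 ratio change -0.68 (SE 0.39, adjusted p = 1), and -0.59 (SE 0.15, adjusted p = 0.261) with the replicate block. Pgk1 had 0.75 (SE 0.57, adjusted p = 1) and Tpi1 0.31 (SE 0.58, adjusted p = 1), both with a wide SE. Without letter A they were 0.34 and 0.05, and over all settings tried they ran from -0.014 to 1.12 and from -0.40 to 0.73, changing sign. The 5 members with an unadjusted p under 0.05 under the block were Vegfa, Pgk1, Slc2a1, Slc2a3 and Aldoa. Of these, 3 stayed negative over all settings: Slc2a1 from -0.58 to -0.19, Slc2a3 from -0.61 to -0.33 and Vegfa from -0.91 to -0.24. Aldoa stayed positive, from 0.0063 to 0.95, and none of the 5 was called in any setting. A change of the ratio was thus not detectable for the members with this depth and spread between libraries.

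In control cells alone, footprints were compared with total RNA, to describe how footprints were spread over the members without Elp3 depletion. A positive value means more footprints per RNA read than in the average gene. Of the 36 members 7 were called higher, where 8.86% of all 11747 genes were, and 2 lower, where 15.1% were. The median log2 difference was 0.48 over the members and -0.05 over all genes. The higher members were Slc2a1 (log2 1.48, SE 0.23, adjusted p = 0.00593), P4ha2 (log2 1.33, SE 0.25, adjusted p = 0.01), Car9 (log2 1.22, SE 0.36, adjusted p = 0.0432), Pfkp (log2 1.21, SE 0.23, adjusted p = 0.0108), Hk1 (log2 1.14, SE 0.23, adjusted p = 0.0137), Kdm3a (log2 0.92, SE 0.25, adjusted p = 0.0316) and Ldhb (log2 0.90, SE 0.24, adjusted p = 0.033). The lower were Eno1 (log2 -4.57, SE 0.71, adjusted p = 0.00602), whose counting is uncertain as above, and Pfkfb4 (log2 -1.04, SE 0.32, adjusted p = 0.0476). With the replicate block, which here pairs RNA and RPF libraries of the same letter, 12 members were higher (15.7% of all genes) and 3 lower (20.2%); Slc2a3, Aldoc, Gapdh, Pdk3 and P4ha1 were the further higher ones and Slc16a3 the further lower one. With letters B and C alone 24 were higher (33.7%) and 4 lower (36%), with a median of 0.67. In this setting Pgk1 (0.77), Tpi1 (1.101) and Ldha (1.07), whose RNA was high in control A, were among the higher ones, against 0.08, 0.52 and 0.74 over all libraries. Leaving out control RNA A alone gave 23 members called, where 44.8% of all genes were, and leaving out control RNA B gave 2, where 9.74% were. Whether footprints were counted over coding sequence alone is not stated, and the part of this in the values was not tested.

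**Figure D4:**
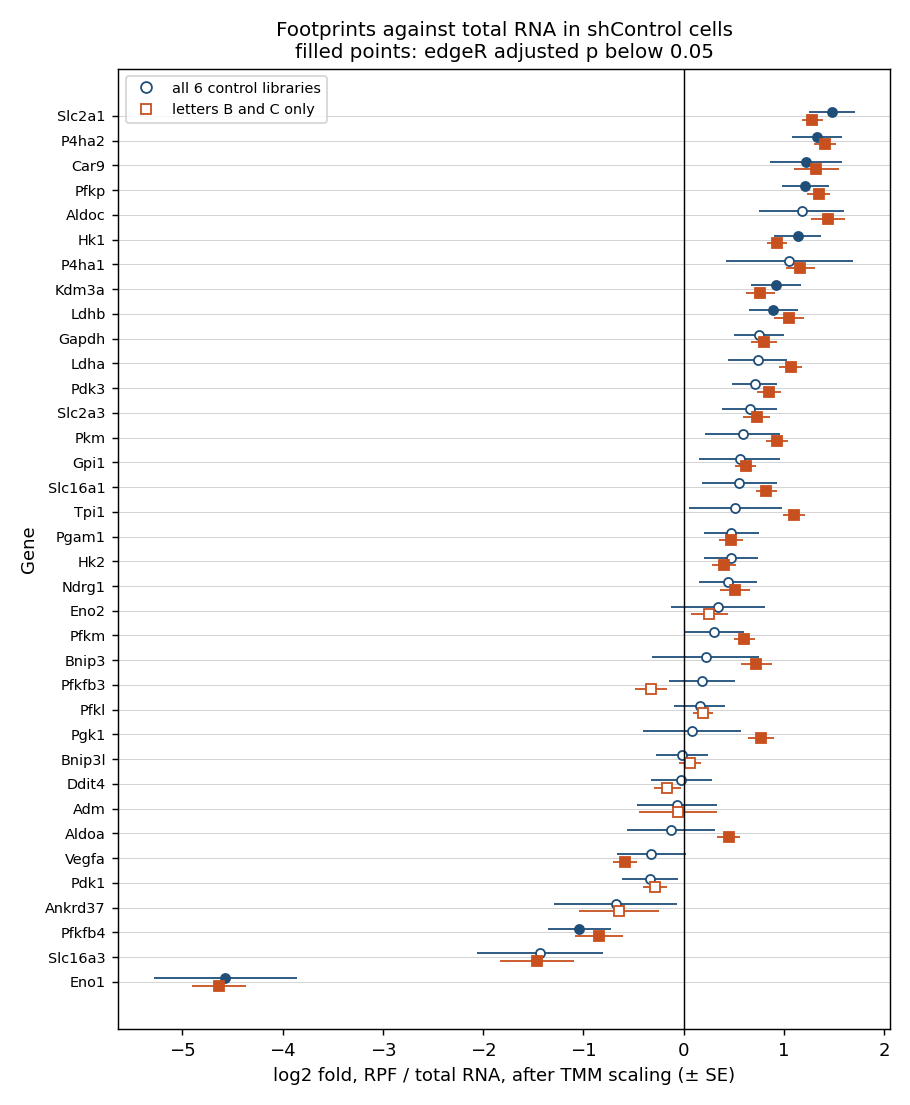
log2 fold of footprints over total RNA in shControl cells with its SE for the 36 genes, sorted, from all 6 control libraries (blue circles) and from letters B and C alone (orange squares); filled points have an edgeR adjusted p below 0.05. Most members lie right of 0, Slc2a1 furthest at 1.48, and Eno1 lies far left at -4.57.

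Genes of neighbouring lists were counted in the same fits. Of 19 further glycolysis genes tested in RNA and 17 in footprints, 0 were called in either, where 1.14 and 4.83% of all genes were. Their medians were -0.05 and -0.19. With the replicate block 2 rose (Pgm2l1 and Slc2a6) and 2 fell (Eno1b and Pgm3) of the 19 in RNA. Of all 12274 genes 670 rose and 829 fell there. In footprints the block gave 1 that fell (Pgm3) of the 17, where 444 of all 11343 genes did. When letter A was left out, 2 rose and 1 fell of 21 in RNA, where 8.88% of all genes rose and 10.5% fell. In footprints 2 rose and 2 fell of 17, where 9.41% of all genes rose and 12.2% fell. In the fit without the block Pgm2l1, a phosphoglucomutase relative, had the lowest p in RNA, with a log2 change of 1.00 (SE 0.26, adjusted p = 0.154), and Slc2a6, a transporter, had 0.78 (SE 0.30, adjusted p = 0.345). In footprints Pgm3, which works in hexosamine synthesis, had -0.91 (SE 0.23, adjusted p = 0.066) and Pgm2l1 0.85 (SE 0.30, adjusted p = 0.14). Of 11 genes of pyruvate entry into mitochondria 0 were called in either fraction, also with the replicate block. Letters B and C only gave 1 lower in RNA (10.5% of all genes) and 1 higher in footprints (9.41%). The lowest p belonged to Pdp2, a phosphatase of pyruvate dehydrogenase, at -0.59 (SE 0.22, adjusted p = 0.316) in RNA and -0.46 (SE 0.16, adjusted p = 0.148) in footprints.

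In RNA 0 of 32 other hypoxia targets were called (1.14% of all genes), with a median of -0.42. With the replicate block 2 of them rose and 3 fell in RNA, where 670 and 829 of all 12274 genes did. Of 31 tested in footprints, 2 rose and 2 fell, where 1.77% of all genes were called higher and 3.06% lower. The footprint median over the list was -0.28. In means ± SD over the 3 libraries of a group, the risers were Ndufa4l2, a mitochondrial protein, from 1.095 ± 0.303 to 6.16 ± 0.884 CPM (log2 2.50, SE 0.32, adjusted p = 0.0163), and Wsb1, a ubiquitin ligase subunit, from 44.4 ± 8.78 to 119 ± 42.3 CPM (log2 1.43, SE 0.27, adjusted p = 0.0349). Those that fell were the transcriptional repressors Bhlhe40, from 67.8 ± 17.1 to 23.2 ± 5.49 CPM (log2 -1.55, SE 0.25, adjusted p = 0.0246), and Bhlhe41, from 213 ± 94.4 to 78.6 ± 18.5 CPM (log2 -1.44, SE 0.33, adjusted p = 0.0494). When letter A was left out, the median over the list was -0.14 in RNA and -0.13 in footprints. In that setting 3 rose and 2 fell of 32 in RNA, where 8.88% of all genes rose and 10.5% fell. In footprints 3 rose and 3 fell of 32, where 9.41% of all genes rose and 12.2% fell.

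Of the factors that act on these genes, Hif1a, named outside the rule after its values were seen, was at 187 ± 14.4 against 165 ± 16.9 CPM in RNA and 363 ± 42.8 against 319 ± 14.2 CPM in footprints, with log2 changes of -0.18 (SE 0.20, adjusted p = 0.824) and -0.19 (SE 0.13, adjusted p = 0.44). Myc was the called gene of the 11 hypoxia and MYC factors tested in footprints, where 4.83% of all genes were called. Its footprints fell from 43.2 ± 14.6 to 11.9 ± 1.79 CPM (log2 -1.86, SE 0.26, adjusted p = 0.0197). In RNA Myc was at 22.5 ± 12.9 against 5.98 ± 3.90 CPM, with -1.93 (SE 0.68, adjusted p = 0.291), and -1.97 (SE 0.23, adjusted p = 5.13e-05) with the replicate block. HIF1A protein is set mainly by its breakdown, which neither fraction measures.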

How the data were processed

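Per the labels, 12 libraries fall into 4 groups of 3, and each RPF library is related to an RNA library. The deposited table holds counts, whole numbers of reads per gene that the authors did not normalize. The build mm10 and the tools TopHat2 2.1.1, Bowtie, HTSeq and bcl2fastq are named in the submitters' processing notes. How reads were assigned (annotation, strand, counted region) is not stated in the labels or file.

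Genes were kept with filterByExpr (minimum count 10), scaled by TMM and compared by the quasi-likelihood test of edgeR 4.0.16 in R 4.3.3. The Benjamini-Hochberg adjustment ran over all genes tested, and adjusted p-values under 0.05 were called. The ratio of footprints to RNA was the interaction of fraction and shRNA. DESeq2 1.42.0 was an alternative, and the functions were tested on simulated data. CPM is not corrected for gene length, so levels are not compared between genes.

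Deviations of same-letter libraries of both shRNAs correlated across genes at 0.807, 0.423 and 0.582 (A, B and C) in RNA. For the ratio the correlations were 0.769, 0.466 and 0.492. A fit with the letters as a replicate block is therefore given beside the main fit, which had no block. In footprints the correlations were 0.328, -0.107 and 0.215, and the block was run there as an alternative too. Control B with shElp3 C reached 0.688 in RNA, so B and C are not shown to be separate pairs.

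The members and lists were chosen with earlier results of these data known. Values in every library are given for members called in any comparison without the block, with it, or with letters B and C only, and for the member of each role with the highest mean control RNA level.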

Additional observations from a re-analysis of the deposited data

How the results depend on the processing

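With the replicate block 3 members were called in RNA, 0 in footprints and 0 for the ratio change, against 0 in each without it. Of all genes, 1499 of 12274, 666 of 11343 and 8 of 11238 were called with the block. For footprints against RNA in control cells it called 15 members instead of 9, where 4215 instead of 2815 of all 11747 genes were called. With letters B and C only, 5 members were called in RNA (2377 of all 12281 genes) and 7 in footprints (2477 of 11440). In that setting 28 were called for footprints against RNA in control cells, where 8326 of all 11958 genes were. The footprint median of the members was -0.023 with B and C only. DESeq2 called 5 members in footprints, where it called 1308 of all 11343 genes. Leaving out 1 library in turn gave 0 to 9 members called in footprints, 9 of them without control A (24.8% of all genes called), and 2 to 23 for footprints against RNA in control cells, 23 without control RNA A (44.8% of all genes) and 2 without control RNA B (9.74%). The median of the latter ran from 0.28 to 0.78. The median ratio change ran from -0.29 without control RNA A to 0.22 without control RNA C, and was -0.081 without control culture A, an alternative chosen after seeing the data. In footprints against RNA of control cells, Aldoa turned from -0.13 to 0.040 with the replicate block and to 0.45 with B and C only, and without single libraries it ran from -0.40 to 0.51, Bnip3 from -0.13 to 1.09 and Pgk1 from -0.24 to 0.87. The cause of these shifts was not tested. Eno1, Slc16a3, Ankrd37, Adm and, to a lesser degree, Pfkfb4 had few footprint counts, which limits their values.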
